A study of Homo sapiens with 2 samples.

Results

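The genes described here are 10 members of the epithelial-mesenchymal switch, ZEB1, ZEB2, SNAI1, SNAI2, TWIST1, CDH1, CDH2, VIM, FN1 and MMP14, out of 19775 genes that the array reads with at least 1 probe set annotated to a single gene. Such probe sets numbered 29 for the members, of 41091 in all, and every one is given below. HEK-293T is an established human embryonic kidney line that carries the SV40 large T antigen. One array measured cells that had received a miR-194 mimic, and the other measured cells that had received a negative control mimic. Each mimic was delivered with lipofectamine at 50 nM for 48 h. A mimic is a synthetic RNA duplex that loads the silencing complex as a natural microRNA would. With 1 array per group no p-value can be given, the number of arrays limits the precision of every value, and culture, labelling and array differences cannot be told apart from the mimic.

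The members were chosen by gene name as switch genes, with the log2 differences between these same arrays already known, so the differences are descriptions and none was tested. Every difference below is the log2 signal on the miR-194 array less that on the control array. A signal below its array's median, 6.10 on the control array and 6.06 on the miR-194 array on the log2 scale, was treated as not distinguishable from that floor. A probe set was kept if its mean after flooring lay above the mean floor, which left 12769 genes. The ± value is the probe set error, the spread of a single probe set's difference at like signal, estimated from how far the probe sets of a gene disagree. It was 0.38 at low, 0.31 at middle and 0.27 at high signal, and it leaves out variation between cultures.

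The epithelial-mesenchymal switch is the programme by which attached, polarised epithelial cells lose E-cadherin junctions and take on a motile, matrix-producing state. ZEB, SNAIL and TWIST proteins are its transcription factors, and they repress CDH1 and other junction genes through E-box motifs. Epithelial cells in turn hold ZEB1 and ZEB2 low with microRNAs of the miR-200 family and miR-205. N-cadherin, vimentin, fibronectin and the membrane protease MMP14 mark the mesenchymal side.

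The labels name the mimic only as miR-194, without its arm or sequence. The natural mature miR-194-5p, the main arm, is set beside the microRNAs known as ZEB repressors, because the seed (bases 2 to 8, in capitals) is what pairs with targets. Sequences are RNA, 5′ to 3′, from RefSeq on GRCh38.p14, and all 7 names looked up were matched.
hsa-miR-194-5p: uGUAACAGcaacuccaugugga
hsa-miR-200a-3p: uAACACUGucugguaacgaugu
hsa-miR-141-3p: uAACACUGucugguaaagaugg
hsa-miR-200b-3p: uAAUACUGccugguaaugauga
hsa-miR-200c-3p: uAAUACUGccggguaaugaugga
hsa-miR-429: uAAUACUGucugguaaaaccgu
hsa-miR-205-5p: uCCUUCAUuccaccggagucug
These 7 microRNAs carry 4 distinct seeds: miR-200a and miR-141 share one, miR-200b, miR-200c and miR-429 share another, and miR-194 and miR-205 each have their own. The miR-194-5p seed is held by 1 of 2370 mature names in the table and matches the miR-200 family seeds at 3 of its 7 positions. The mature miR-194-5p is made from 2 genes, MIR194-1 on the minus strand at chr1:220118206-220118227 and MIR194-2 on the minus strand at chr11:64891404-64891425. The target-side match to its seed reads CUGUUAC, and transcripts of the members were not searched for it here.

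ZEB1 was the member with the largest difference and was lower with miR-194. The brightest ZEB1 probe set, 212764_at, read 10.35 on the control array and 8.97 on the miR-194 array on the log2 scale. On the linear scale its signals were 1303 and 501, a log2 difference of -1.38 ± 0.31 or 2.60-fold. Probe set 212758_s_at read 8.66 and 7.84, a log2 difference of -0.83 ± 0.38. The dimmest kept probe set, 210875_s_at, read 6.67 and 6.08, and its difference of -0.59 ± 0.38 lay at the 1.5-fold mark itself. The remaining ZEB1 probe set, 239952_at, was under the floor on both arrays at 5.82 and 4.21, so it gives no fold. In bulk RNA, fewer cells holding a transcript and less transcript per cell cannot be told apart.

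Few genes had a difference as low as that of ZEB1. Of the 12769 kept genes, 31 were as low or lower on their brightest probe set, ZEB1 included. Of the 500 genes nearest to ZEB1 in signal, 5 were as low, and the central 95% of those genes ran from -1.03 to 0.49. Among 5366 kept probe sets of middle signal, 19 (0.354%) were as low as 212764_at. The other kept ZEB1 probe sets were less unusual. Among kept probe sets of low signal, 3.94% were as low as 212758_s_at and 9.22% as low as 210875_s_at. All the kept ZEB1 probe sets were lower by 1.5-fold or more, but their differences spanned 0.79 log2 units. The median span was 0.60 over genes with at least 3 kept probe sets, and 31.5% of these spanned as much as ZEB1. Of 2980 genes with 3 or more kept probe sets, 23 (0.772%) had all of them lower by 1.5-fold or more, ZEB1 among them, and 0 had all of them higher. With quantile normalization 210875_s_at stood at -0.55, short of that mark.

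Across 2 arrays a pattern is a single difference, so likeness to ZEB1 can mean only a similar size. Among genes with 3 or more kept probe sets all lower by 1.5-fold, VPS13A was nearest, at -1.37 against -1.38 for ZEB1. It was followed by IL6ST at -1.27, ERGIC2 and PHIP at -1.23 each, and ATRX at -1.65. VPS13A is a lipid transfer protein and IL6ST is a cytokine receptor subunit.

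ZEB2, the close relative of ZEB1 and also a repressor of E-cadherin, was lower by a smaller amount. Probe set 203603_s_at read 8.16 on the control array and 7.62 on the miR-194 array, a log2 difference of -0.53 ± 0.38 that fell short of 1.5-fold. Probe set 228333_at read 7.68 and 6.80, a difference of -0.88 ± 0.38 or 1.84-fold. Both kept ZEB2 probe sets were below 0 by more than their error. Of the genes with exactly 2 kept probe sets, 24.7% had both below 0. The other 3 ZEB2 probe sets were under the floor on both arrays, with 235593_at at 5.36 and 5.09, 233033_at at 3.79 and 2.24, and 233031_at at 3.09 and 3.75. Of the 500 genes nearest to ZEB2 in signal, 43 were as low as its brightest probe set. Over ZEB1 and ZEB2, 4 of the 5 kept probe sets were lower by 1.5-fold or more. Of these, 210875_s_at of ZEB1 lay at the mark itself, and after quantile normalization it fell short at -0.55. Over all genes, 7.99% of kept probe sets were that much lower, and 9.23% of those of low signal. The probe sets of a gene are readings of the same 2 arrays and not replicates.

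**Figure D1:**
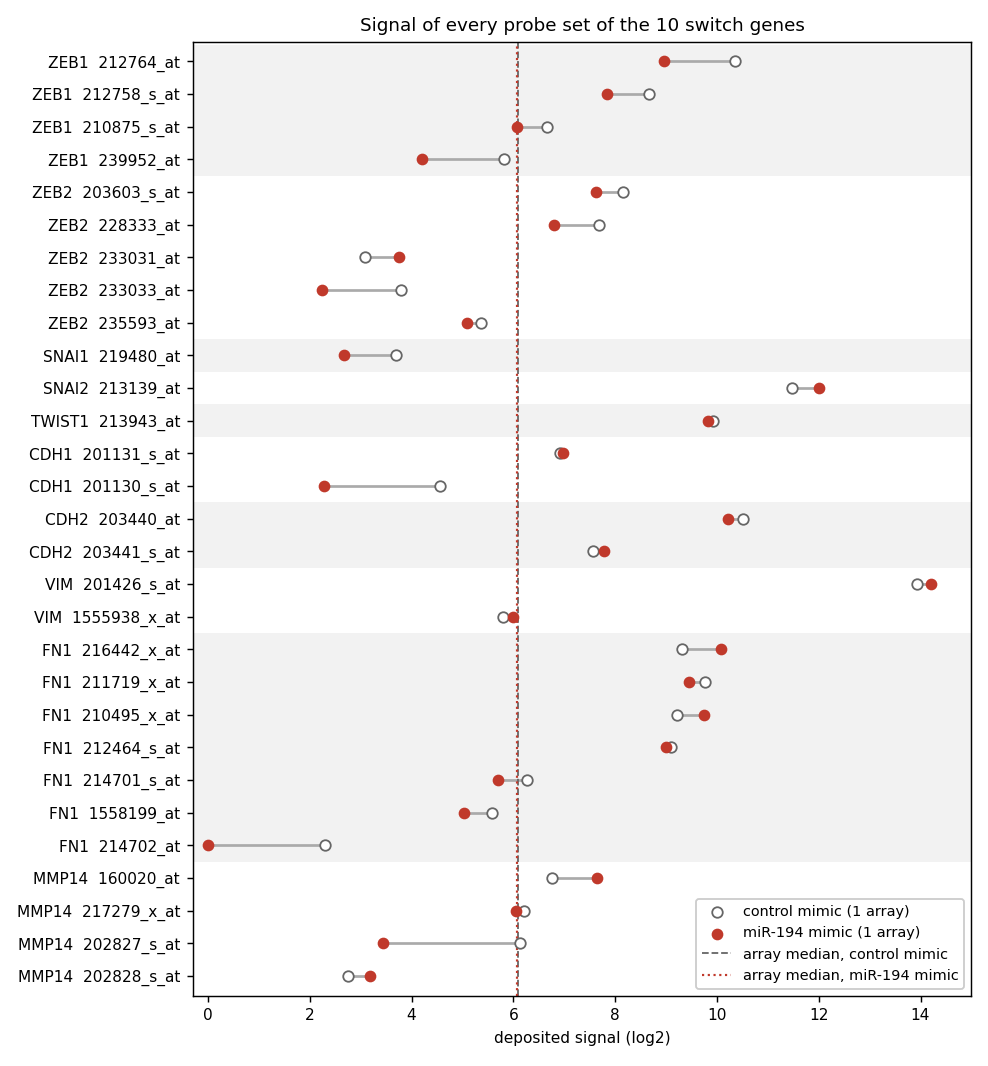
Each row is 1 probe set of a switch gene, with its deposited log2 signal on the control mimic array (open circle) and on the miR-194 mimic array (filled circle), and vertical lines at the array medians of 6.10 and 6.06. The 3 ZEB1 rows above the medians have the filled circle to the left, SNAI2 has it to the right, and the FN1 rows point both ways.

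None of the SNAIL and TWIST factors was lower by 1.5-fold on a kept probe set. SNAI2 encodes SLUG, a zinc finger repressor of CDH1, and its single probe set 213139_at read 11.48 on the control array and 12.00 on the miR-194 array. The SNAI2 difference of 0.52 ± 0.27 was above 0 by more than its error and short of 1.5-fold. Only 4 of the 500 genes nearest to SNAI2 in signal were as high, and their central 95% ran from -0.64 to 0.45. SNAI1, the SNAIL factor, was under the floor on both arrays, with 219480_at at 3.70 and 2.67, and gives no fold. TWIST1, a basic helix-loop-helix factor, read 9.92 and 9.81 on 213943_at, a difference of -0.10 ± 0.31 that was within the error. TWIST1 lay close to the middle of its neighbours in signal, 191 of 500 being as low.

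CDH1, which encodes E-cadherin and is the best known target of ZEB repression, showed no difference beyond the error. Probe set 201131_s_at read 6.91 on the control array and 6.98 on the miR-194 array, a log2 difference of 0.07 ± 0.38. These signals lay less than 1 log2 unit above the floors, at which the central 95% of genes of like signal ran from -1.09 to 1.06, so a moderate difference in CDH1 was not detectable. The other CDH1 probe set, 201130_s_at, was under the floor on both arrays at 4.57 and 2.28.

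CDH2 encodes N-cadherin, the cadherin of mesenchymal and neural cells, and other studies have reported it as a miR-194 target. Its brighter probe set 203440_at read 10.50 on the control array and 10.23 on the miR-194 array, a log2 difference of -0.28 ± 0.31. Its other probe set, 203441_s_at, read 7.57 and 7.78, a difference of 0.21 ± 0.38. The 2 probe sets thus pointed opposite ways and neither passed its error. Among the 500 genes nearest to CDH2 in signal, 114 were as low as the brighter probe set.

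VIM encodes vimentin, the intermediate filament of mesenchymal cells. Probe set 201426_s_at read 13.94 on the control array and 14.21 on the miR-194 array, a log2 difference of 0.28 ± 0.27. Very bright genes as a group were above 0 on the authors' scaling, with a median of 0.14 over the 500 genes nearest to VIM. After quantile normalization the VIM difference was 0.13, and after loess normalization it was 0.14. The second VIM probe set, 1555938_x_at, was under the floor on both arrays at 5.80 and 5.996.

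FN1 encodes fibronectin, a matrix glycoprotein that integrins assemble into fibrils, and its probe sets disagreed. The brightest, 216442_x_at, read 9.32 on the control array and 10.09 on the miR-194 array, a log2 difference of 0.77 ± 0.31 or 1.70-fold higher. Probe set 210495_x_at was also higher, at 9.21 and 9.74, a difference of 0.53 ± 0.31. Against these, 211719_x_at read 9.76 and 9.44, a difference of -0.32 ± 0.31, and 212464_s_at read 9.09 and 8.997, a difference of -0.09 ± 0.38. Probe set 214701_s_at read 6.27 with the control mimic and 5.69, under the floor, with miR-194, so it was at least 1.16-fold lower. The remaining FN1 probe sets were under the floor on both arrays, with 1558199_at at 5.57 and 5.03 and 214702_at at 2.30 and 0.

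The FN1 differences thus spanned 1.09 log2 units over 5 kept probe sets. The median span was 0.60 over all genes that had at least 3 such probe sets, and 13.2% of these spanned as much as FN1. The mean over the kept FN1 probe sets was 0.13, against 0.77 for the brightest. All 5 kept FN1 probe sets have names ending in _s_at or _x_at, the types that can read several transcripts, and FN1 has no value without them. None of the 500 genes nearest to FN1 in signal was as high as 216442_x_at, which says nothing of the other probe sets.

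MMP14 encodes a membrane-anchored matrix metalloproteinase that cleaves collagen and activates MMP2. Probe set 160020_at read 6.76 on the control array and 7.63 on the miR-194 array, a log2 difference of 0.87 ± 0.38 or 1.83-fold higher. No other MMP14 probe set lay above the floor on both arrays. Probe set 217279_x_at read 6.22 and 6.06, at least 1.11-fold lower, and 202827_s_at read 6.13 and 3.44, at least 1.05-fold lower because the control signal was itself next to the floor. Probe set 202828_s_at was under the floor on both arrays at 2.75 and 3.19. All MMP14 signals were low. Of the 500 genes nearest to MMP14 in signal, 13 were as high as 160020_at, and their central 95% ran from -0.95 to 0.87. The mean over its 3 kept probe sets was 0.22, with 217279_x_at and 202827_s_at counted at their bounds, so it is not a measured mean.

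**Figure D2:**
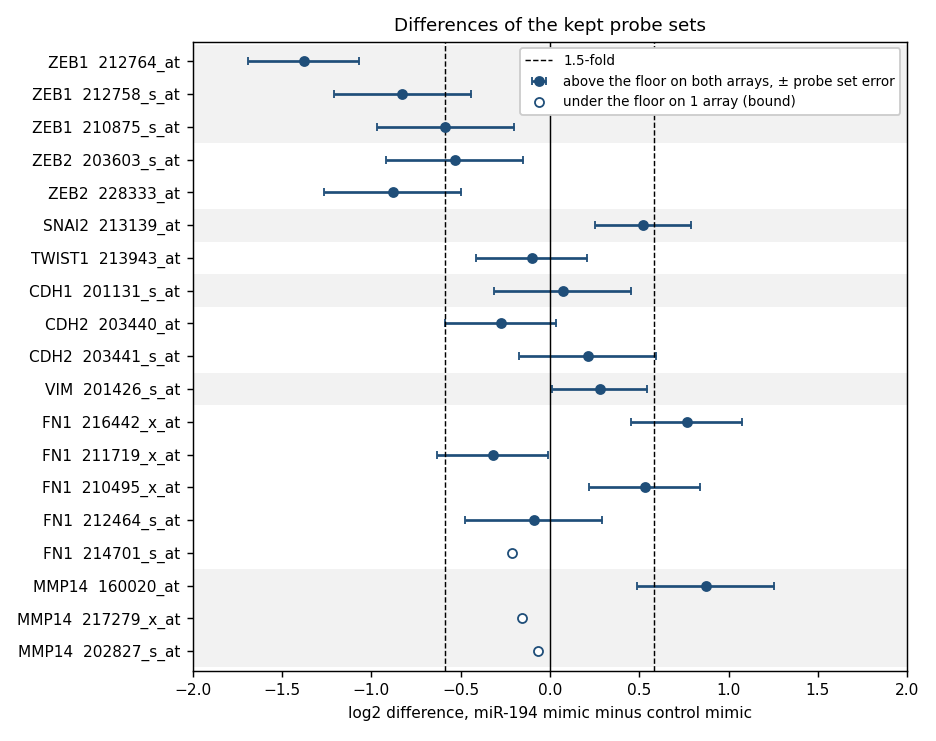
The log2 difference of each of the 19 kept member probe sets (x axis, miR-194 mimic minus control mimic) is drawn with the probe set error as a bar, open circles being bounds with 1 array under the floor and dashed lines the 1.5-fold marks. The ZEB1 and ZEB2 points all lie left of 0, and CDH2, FN1 and MMP14 have points on both sides.

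In all, 9 of the 10 members had a kept probe set, and SNAI1 did not. On the brightest probe set 1 of the 9 was lower by 1.5-fold or more (ZEB1), against 7.36% of all kept genes. A further 2 of the 9 were higher by that size (FN1 and MMP14), against 3.02% of all kept genes. With so few members these counts say little, and nothing about the group was tested. The median of the 9 differences was 0.07, beside 0.02 over all kept genes, with 4 members below 0 and 5 above. ZEB1 alone passed 2-fold, as 1.42% of all kept genes did on the lower side. By probe set, 4 of the 19 kept were lower by 1.5-fold or more, all of them of ZEB1 and ZEB2, and 2 were higher, against 7.99% and 5.08% of all kept probe sets. Of the 5 members with several kept probe sets, 3 had them on both sides of 0, as did 54.0% of all such genes.

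Gene length moved with the differences. The kept genes were put in 5 equal classes of genomic length, and 14.2% of the longest class were lower by 1.5-fold or more, against 3.72% of the shortest. ZEB1 (211 kb), ZEB2 (136 kb), CDH1 (98.2 kb) and CDH2 (244 kb) belong to the longest class, FN1 (75.2 kb) to the next longest (9.45% lower), VIM (9.35 kb) and MMP14 (11.2 kb) to the next shortest, and SNAI2 (3.83 kb) and TWIST1 (4.59 kb) to the shortest. From the shortest to the longest class, the median difference over all kept genes was 0.09, 0.07, 0.04, -0.03 and -0.11, so most genes of the longest class were themselves below 0. On the brightest probe sets, 3 of the 4 members in the longest class were below 0 (ZEB1, ZEB2 and CDH2) and CDH1 was above 0. Of the members in the other classes TWIST1 was below 0, and SNAI2, VIM, FN1 and MMP14 were above it. The part of gene length in the ZEB1 and ZEB2 differences was not tested.

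**Figure D3:**
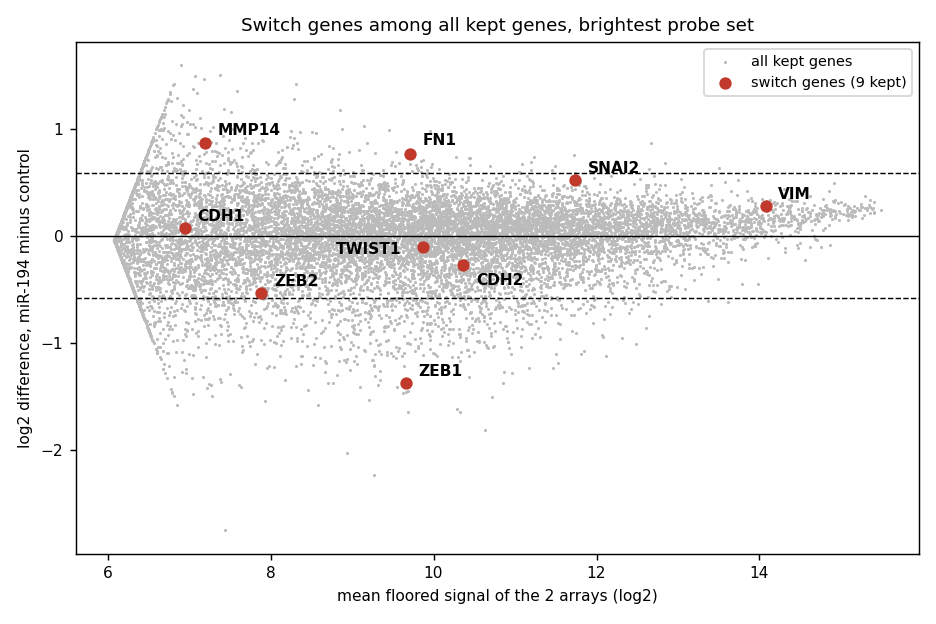
Each grey point is the brightest kept probe set of a gene, with the mean floored log2 signal of the 2 arrays on the x axis and the log2 difference on the y axis, and dashed lines mark 1.5-fold. Of the 9 switch genes in red, ZEB1 lies below the lower line at -1.38, and FN1 at 0.77 and MMP14 at 0.87 lie above the upper one.

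Other genes of the switch were taken from 8 lists of factors, partners and markers, 149 genes in all, of which 106 were kept. A gene with no probe set annotated to it alone was counted as not kept. On their brightest probe sets 9 were lower by 1.5-fold or more (8.49%) and 1 was higher (0.943%), beside 7.36% and 3.02% of all kept genes. The lower share was near the background, and the median difference was -0.00016 beside 0.02 over all kept genes.

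Among other transcription factors of the switch, 18 of 20 had a probe set annotated to 1 gene and 13 were kept, with a median of -0.17. Of these 13, 3 passed 1.5-fold on the lower side and 0 on the higher, beside 7.36% and 3.02% of all kept genes. With so few genes the count says little. YAP1, the Hippo pathway coactivator, was at -0.64 ± 0.27, with another probe set at 0.14. FOXC2, a forkhead factor, was at -0.63 ± 0.38 on its only kept probe set. TCF4, an E-box binding partner of TWIST, was at -0.61 ± 0.27, with 8 kept probe sets from -0.82 to 0.28. SOX9 was highest at 0.36 ± 0.38. Of the cofactors and turnover enzymes of ZEB and SNAIL proteins 23 were kept, and the median was -0.0063. Past 1.5-fold there were 0 in either direction, beside the same shares of all kept genes. The ZEB co-repressors CTBP1 and CTBP2 were at 0.05 ± 0.27 and -0.14 ± 0.27. The deacetylase SIRT1 was lowest at -0.52 ± 0.27 and the methyltransferase PRMT5 highest at 0.43 ± 0.27.

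On the epithelial side, 25 of 28 genes had a probe set annotated to 1 gene and 14 were kept, with a median of -0.03. By 1.5-fold or more, 1 was lower and 1 higher, beside 7.36% and 3.02% of all kept genes. The tight junction scaffold TJP1 stood at -0.68 ± 0.27, its other kept probe set at 0.28. PKP3, a desmosomal plakophilin, was at 0.61 ± 0.38 on its only kept probe set. Occludin (OCLN) at -0.10 ± 0.31, desmoplakin (DSP) at -0.08 ± 0.27 and keratin 18 (KRT18) at 0.02 ± 0.31 were within their errors. EPCAM, ESRP1 and GRHL2, hallmark epithelial genes, had no kept probe set. Among cadherins and catenins, 10 of 13 had such a probe set and 7 were kept, with a median of 0.27. That median is the value of CDH11, which lay under the floor with the control mimic, so it is a bound. ADAM10, which sheds cadherin ectodomains, was at -0.61 ± 0.31 with others up to 0.32. Beta-catenin (CTNNB1) was at 0.33 ± 0.27 with probe sets from -0.25 to 0.67, and CDH24 was highest at 0.46 ± 0.38.

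Of 23 mesenchymal cytoskeleton and matrix genes, 21 had a probe set annotated to 1 gene and 15 were kept, with a median of 0.02. The matrix protein tenascin C (TNC) alone passed 1.5-fold, at -0.61 ± 0.38, beside 7.36% of all kept genes lower and 3.02% higher. Collagen gene COL5A2 was highest at 0.36 ± 0.38. Of the fibronectin receptors and adaptors all 11 were kept, with a median of -0.06. The integrin subunit ITGAV was at -1.02 ± 0.31 on its only kept probe set, while ITGA5, the main fibronectin receptor subunit, was at -0.31 ± 0.38. The syndecan SDC4 was highest at 0.19 ± 0.38.

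The partners of MMP14 had 9 of 15 kept and a median of 0.06. MMP16, a membrane-type relative, was at -0.98 ± 0.38 with its other kept probe set at 0.16. MMP2, the MMP14 substrate, was highest at 0.35 ± 0.38. TIMP2, the inhibitor that bridges them, was at -0.23 ± 0.31 with probe sets from -0.36 to 0.95. TGF-beta signalling induces the switch factors. Among genes of that pathway, which include its inhibitors as well as its inputs, 14 of 15 were kept with a median of -0.03. SKIL, a SMAD co-repressor, was at -1.10 ± 0.31 with its other kept probe set at -0.15. The receptor TGFBR1 was at -0.44 ± 0.27 with all 3 kept probe sets below 0. The ligand TGFB1, under the floor with the control mimic, was at least 1.24-fold higher.

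**Figure D4:**
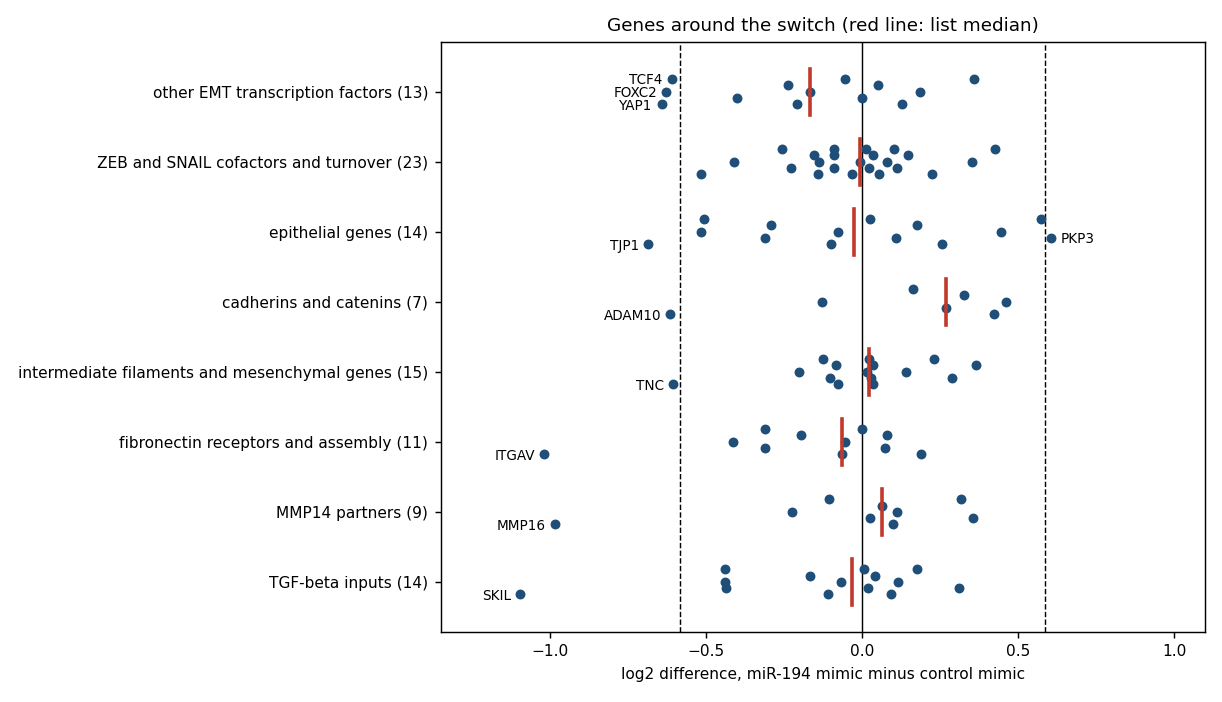
Each point is a kept gene of 1 of the 8 lists, at the log2 difference of its brightest probe set (x axis, miR-194 mimic minus control mimic), with the number of kept genes in brackets, the list median as a red line and dashed lines at 1.5-fold. SKIL, ITGAV and MMP16 lie farthest left, and PKP3 alone lies past the right-hand line.

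The labelled cell line was compared with its markers. Of 8 kidney developmental and neurofilament genes known in HEK-293 cells, 6 were kept, among them PAX2 at 6.88 and 7.30 and NEFL at 10.76 and 10.91. Fewer markers of other cell types were kept: 4 of 10 for fibroblasts, 2 of 8 for blood, 1 of 6 for endothelium and 1 of 6 for keratinocytes. Only 7 of the HEK-293, 5 of the blood and 5 of the keratinocyte markers had a probe set annotated to 1 gene. The log2 of the summed signal of the fibroblast markers, cells that express VIM, FN1 and ZEB1, was 9.72 on the control array and 9.65 on the miR-194 array. It was 7.71 and 8.54 for blood markers, of which the globin HBB read 6.43 and 7.76, a difference of 1.34 ± 0.38. For endothelial markers it was 7.19 and 7.56. For keratinocyte markers it was 12.09 and 11.93, of which KRT10, the only one kept, read 12.06 and 11.90. The part of other cells in the members' differences was not tested.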

How the data were processed

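Total RNA from 2 HEK-293T cultures, 1 per group, was labelled with biotin and hybridised to Affymetrix 3′ arrays, per the labels' protocols. The deposited values are log2 signals; the submitters' processing notes name MAS5 without a version, and the sources used here do not give the log base, scaling target or genome build. Taken as log2, the values of either array had a 2% trimmed mean signal of 500.1, as a common scaling would give. Of 54675 probe sets, 62 are array controls, and of the rest 41091 have 1 gene in the platform annotation, 1801 have several (left out) and 11721 are unnamed. Symbols were checked through Entrez identifiers against RefSeq GRCh38.p14 (41037 matched, 0 symbols differed), which also gave genomic lengths but no coordinates of the members.

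Signals were floored at each array's median over non-control probe sets, and the kept probe set of highest mean signal stood for its gene. The probe set error is the SD of the difference between the 2 brightest probe sets, over 6456 genes in 3 signal classes, divided by the square root of 2. No test between groups was possible. The functions were tested on simulated data. All members and the probe sets annotated to 1 gene are named; of other lists, genes past 1.5-fold, the highest and the lowest, with a few more chosen after their values were seen. The members and lists were chosen with earlier results of these data known. Alternatives were 3 scalings (median, quantile, loess with span 0.3), 4 floors (25th and 75th percentile, 95th percentile of 135 olfactory receptor probe sets, none), the mean over probe sets, leaving out names ending in _s_at, _x_at or _a_at, and a 2-fold threshold. Python 3.11.15, pandas 2.3.3 and statsmodels 0.14.6 were used.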

Additional observations from a re-analysis of the deposited data

How the results depend on the processing

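Of 75 member differences recomputed over 9 alternatives, 72 moved by less than the probe set error and 0 reversed. ZEB1 was lower by 1.5-fold or more under all 9, from -1.40 to -0.93. The 4 floors cannot change a difference whose signals both lie above them. The brightest ZEB1 probe set is also not of a shared-sequence type. Its value of -1.38 was therefore fixed in advance under those alternatives, which say nothing of its stability. For the other members, too, the 4 floors left each difference that stayed in as it was. Leaving out shared-sequence types could not change SNAI2, TWIST1, CDH2 or MMP14, whose brightest probe sets are of other types. The mean could not change SNAI2, TWIST1, CDH1 or VIM, with 1 kept probe set each. Median scaling lowered every member by the same 0.02. Many of the 75 were thus fixed in advance, so the count of 72 says little of stability. The 3 member differences that moved did so with the mean over kept probe sets, to -0.93 for ZEB1, 0.13 for FN1 and 0.22 for MMP14. With that setting, 2 members (ZEB1 and ZEB2) were lower by 1.5-fold and 0 higher, beside 5.29% and 2.69% of all kept genes. Members lower by 1.5-fold also numbered 2 of 10 with no floor and no filter, which admits SNAI1, beside 17.8% of all genes. They numbered 2 of 6 without shared-sequence probe sets, beside 8.72% of all kept genes. Members higher numbered 1 of 6 with a floor at the 75th percentile, 1 of 6 without shared-sequence probe sets and 0 of 9 at 2-fold. The shares of all kept genes were 0.726%, 3.07% and 0.446% in turn. Of the other lists' genes, 15 of 129 were lower and 12 higher with a floor at the 25th percentile. With no floor they were 20 and 17 of 138. The shares of all kept genes lower and higher were 13.6% and 9.06% with the 25th percentile floor, and 17.8% and 13.2% with none. Genes of the other lists that were lower numbered 4 of 106 with the mean over probe sets and 2 of 106 at 2-fold, beside 5.29% and 1.42% of all kept genes. Those that were higher numbered 2 of 106 after quantile normalization, beside 3.36% of all kept genes. They numbered 0 with a floor at the 75th percentile (67 kept), without shared-sequence probe sets (75 kept) or at 2-fold (106 kept). Under these 3 settings 0.726%, 3.07% and 0.446% of all kept genes were higher, so the counts of 0 say little. Over all genes, 940 were lower and 385 higher by 1.5-fold, against 2386 and 1588 with a floor at the 25th percentile, 3512 and 2607 with none, and 489 and 59 at the 75th percentile. At 2-fold they were 181 and 57. Signal over background limits SNAI1, CDH1, MMP14 and the dim ZEB2 probe sets. No paired analysis was possible because each group has 1 array and the labels give no replicate numbers.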
